A study of Mus musculus with 59 samples.

Results

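The 32 genes described here make, sense, carry and convert sterols in the mouse prefrontal cortex. They were chosen by name, and a gene entered if its row in the expression table held a value of 10 or more in at least 4 libraries. All 32 named genes had such a row, and each reached 10 in every one of the 59 libraries, out of 17891 genes that met the same limit among 18088 in the table. By role they comprised 8 enzymes of the mevalonate arm, 10 enzymes between squalene and cholesterol, 5 regulators, 4 genes of transport and storage, 4 genes of efflux and sterol sensing, and 1 enzyme of oxysterol conversion.

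The study sequenced poly(A) RNA of C57BL/6J mice that were heterozygous for Naa15 (HT, 29 libraries) or wild type (WT, 30 libraries). NAA15 is the auxiliary subunit of NatA, the enzyme complex that acetylates the amino terminus of many new proteins. The nursing young received fluoxetine, a serotonin reuptake inhibitor, or lithium, a mood stabiliser, through the mother's milk from postnatal day 3 to day 24, or vehicle, and the cortex was taken at postnatal day 25. Each genotype was split by sex: HT fluoxetine, HT lithium, HT vehicle, WT fluoxetine, WT lithium and WT vehicle held 5 females and 5 males each, except for HT vehicle with 5 females and 4 males. The dose that reached the young, the allele and the litters are not given in the sources used here.

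Brain cholesterol is made locally, because lipoproteins of the blood hardly cross the blood-brain barrier, and demand is high while myelin and synapses form after birth. Acetyl-CoA is turned by way of mevalonate into squalene, which is closed into a ring and trimmed to cholesterol. When sterol in the endoplasmic reticulum is low, SCAP carries the factor SREBP-2 to the Golgi, where it is cut free and switches on genes of synthesis and uptake. When sterol is ample, the INSIG proteins hold SCAP back, and oxysterols activate the liver X receptors, which raise efflux genes.

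The libraries held 24.99 to 32.87 M recovered reads (M; median 29.11 M), and the values below are the authors' normalised read counts. The labelled sex matched the sex-linked genes in 59 of 59 libraries. Naa15 itself ran from 1509.8 to 1710.2 (median 1599) in HT vehicle and from 1476 to 1971 (median 1612) in WT vehicle, a log2 difference of -0.03 (limma, adjusted p = 0.895), so its level did not separate the genotypes and the labels were used as given. Of the defining markers of cortical excitatory neurons, Slc17a7 ran from 39240 to 59600 over all libraries, whereas Drd2, a marker of striatal neurons, ran from 14.4 to 896, so single libraries held more striatal signal than others. Of 8 striatal markers 0 were negative in HT against WT under vehicle (median log2 0.32, 0 at a limma adjusted p under 0.05). Under lithium in HT 7 were negative (median -0.38), and only 1, a higher one, passed that threshold. Under fluoxetine in WT 4 were negative (median 0.03), and 0 passed. The part of this signal in the results below was not tested. All 20 lithium libraries and the 5 HT fluoxetine females stood apart from the other 34 on the first principal component, with scores of 14.9 to 31.6 in those 25 libraries and -27.6 to 2.74 in the other 34. Their slope of log2 value per doubling of transcript length was apart too, at -0.158 to -0.0237, against -0.00457 to 0.0880 in the other 34. The mitochondrial share overlapped at its edges: it was 6.76% to 10.3% in those 25 libraries and 4.96% to 7.83% in the other 34. Their slope of log2 value on 10 points of GC content was -0.255 to -0.0570, against -0.0627 to 0.191 in the other 34, also with a narrow overlap. Lithium therefore cannot be told apart from this profile of the libraries, nor can fluoxetine in HT females, and results are also given after removing, library by library, the dependence of log2 value on GC content and transcript length (trend removed).

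Per kilobase of the longest transcript, averaged over all libraries, Apoe stood far above the rest with a mean normalised count of 23480 per kb. Hmgcs1 with 3038 and Cyp46a1 with 3007 followed, and then Srebf2 with 1292 (all per kb). The 10 enzymes between squalene and cholesterol covered a narrow band, with Hsd17b7 lowest at 157 and Msmo1 highest at 748 per kb. Nr1h3, the alpha form of the liver X receptor, was lowest of all at 26.7 per kb, against 533 per kb for Nr1h2, the beta form. The changes with treatment were small beside these differences in level: with both sexes pooled the widest called log2 change was that of Mvd under lithium in HT mice, -0.64.

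Under fluoxetine 4 sterol genes were lower in WT mice and none was higher. In WT mice, both sexes pooled, 4 of 32 members were lower than under vehicle (limma on log2 of the value plus 1, Benjamini-Hochberg adjusted p under 0.05 over all 17891 genes), where 0.386% of all genes tested were lower. These were Insig1, Stard4, Sqle and Cyp51. No member was higher (0 of 32, with 1 at an unadjusted p under 0.05, and 0 by edgeR and by DESeq2), where 0.632% of all genes were higher. The median log2 change was -0.07 over the members and 0.00 over all genes, and 25 of the 32 members, among them 17 of the 18 enzymes of synthesis, had a negative value. The number called was 2 without WT fluoxetine female replicate 5, WT fluoxetine male replicate 5, WT vehicle female replicate 4 or WT vehicle male replicate 5, and Insig1 and Stard4 were called without any 1 of the 20 libraries.

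A further comparison was added after the data had been seen, so that fluoxetine groups whose libraries did not stand apart could be used together. It took WT females, WT males and HT males with equal weight, 15 fluoxetine libraries against 14 vehicle libraries. Here 10 of 32 members were lower, where 0.984% of all genes were lower, and no member was higher (0 at an unadjusted p under 0.05, 0 by edgeR and by DESeq2), where 1.31% of all genes were higher. The 10 were Hmgcs1 and Mvd of the mevalonate arm, Sqle, Lss, Cyp51, Hsd17b7 and Dhcr7 of the squalene to cholesterol arm, the regulators Insig1 and Srebf2, and the carrier Stard4. The members' median log2 change was -0.09, against 0.00 over all genes. This comparison shares the 20 WT libraries with the WT comparison, so the same direction in both is no independent repeat. Without HT fluoxetine male replicate 5 the number called was 6.

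The regulator Insig1 (ENSMUSG00000045294, chr5:28071363-28078662, GRCm38) had the smallest p-value of the members; its product retains SCAP and its transcription is itself raised by SREBP. Its normalised counts were 1596, 1532, 1354, 1520.4 and 1553 in WT fluoxetine males, against 1990.3, 1821, 1931, 2016 and 2012 in WT vehicle males. In females they were 1766, 1852, 1860.5, 1689 and 1484 in WT fluoxetine, against 2006, 2142, 2088, 2211 and 2047 in WT vehicle. HT fluoxetine males had 1822, 1826, 1568, 1707 and 1409, against 1987, 1911, 2072 and 2196 in HT vehicle males. In each of these 3 pairs the groups did not overlap: every fluoxetine library lay below every vehicle library of its own sex and genotype. The share of all genes without overlap was not counted for this or any other pair of groups, so a lack of overlap only describes. Over the 3 groups together the level was 0.802 times that under vehicle (log2 fold change -0.32, SE 0.035, adjusted p = 2.80e-08), and in WT alone 0.797 times (log2 fold change -0.33, SE 0.042, adjusted p = 5.43e-06). The adjusted p stayed under 0.05 without any 1 of the 29 libraries.

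Promoters of 3 members that fell under fluoxetine are shown as the 250 bases before the start of transcription (RefSeq, GRCm38.p6), written 5′ to 3′ in the direction of the gene: Insig1 for its change, Cyp51 for its call in both comparisons and Hmgcs1 for the sterol element. Capitals mark CCAAT, the box bound by NF-Y, on either strand, and TCACNCCAC, a core of the sterol regulatory element bound by SREBP. The stretches are chr5:28071162-28071411 on the plus strand for Insig1, chr13:119690101-119690350 on the plus strand for Hmgcs1 and chr5:4104698-4104947 on the minus strand for Cyp51.
Insig1: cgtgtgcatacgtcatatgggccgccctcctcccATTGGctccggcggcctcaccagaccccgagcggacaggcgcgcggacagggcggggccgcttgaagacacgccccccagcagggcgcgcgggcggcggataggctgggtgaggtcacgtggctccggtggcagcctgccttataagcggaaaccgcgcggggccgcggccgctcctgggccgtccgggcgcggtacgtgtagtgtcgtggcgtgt
Hmgcs1: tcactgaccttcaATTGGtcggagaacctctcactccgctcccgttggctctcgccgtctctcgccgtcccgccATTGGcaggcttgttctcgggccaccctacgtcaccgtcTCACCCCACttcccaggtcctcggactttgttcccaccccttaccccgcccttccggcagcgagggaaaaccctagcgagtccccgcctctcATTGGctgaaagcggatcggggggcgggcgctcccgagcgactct
Cyp51: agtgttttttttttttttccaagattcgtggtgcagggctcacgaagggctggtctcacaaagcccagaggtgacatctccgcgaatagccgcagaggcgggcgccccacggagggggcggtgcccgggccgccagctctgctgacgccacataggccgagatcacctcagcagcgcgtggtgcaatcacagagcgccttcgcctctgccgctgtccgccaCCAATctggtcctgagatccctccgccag
Promoter entries were found for 26 of 32 members (37 promoters). On both strands of these 250 bases, CCAAT occurred in 56.8% of member promoters and in 33.8% of all 32851 promoters, GGGCGG, the box bound by Sp1, in 67.6% and 32.7%, and CACGTG, the E-box, in 16.2% and 6.02%. TCACNCCAC occurred in 1 member promoter, that of Hmgcs1 (2.70%), and in 1.05% of all promoters. Of the 10 members that fell over the 3 groups, 8 had an entry that was searched. All 8 held CCAAT in at least 1 promoter, as did 12 of 18 other members with an entry. GGGCGG was likewise held by all 8, and by 14 of the 18 others. These counts are per gene, and the share per gene over all genes was not counted. No match of 1 motif overlapped a match of another in these promoters. A match describes letters only and is no measure of binding.

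Stard4 (ENSMUSG00000024378, chr18:33199355-33213862), a cytosolic carrier that moves cholesterol between membranes, fell almost as far. It had 725, 771, 673, 734 and 656 in WT fluoxetine males, against 993, 767, 861, 988 and 1006 in WT vehicle males. In females it had 783, 831, 724, 934 and 729.8 in WT fluoxetine, against 985, 967, 903, 989 and 973 in WT vehicle. HT fluoxetine males had 834, 814, 677, 759.8 and 675, against 861, 799.9, 887 and 1035 in HT vehicle males. In each pair 1 or 2 fluoxetine libraries reached into the vehicle range, and all 15 fluoxetine libraries lay below the median of the 14 vehicle libraries. The change was -0.30 over the 3 groups (SE 0.046, adjusted p = 3.81e-05) and -0.32 in WT (SE 0.055, adjusted p = 3.68e-04), and no single library decided either call.

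**Figure D1:**
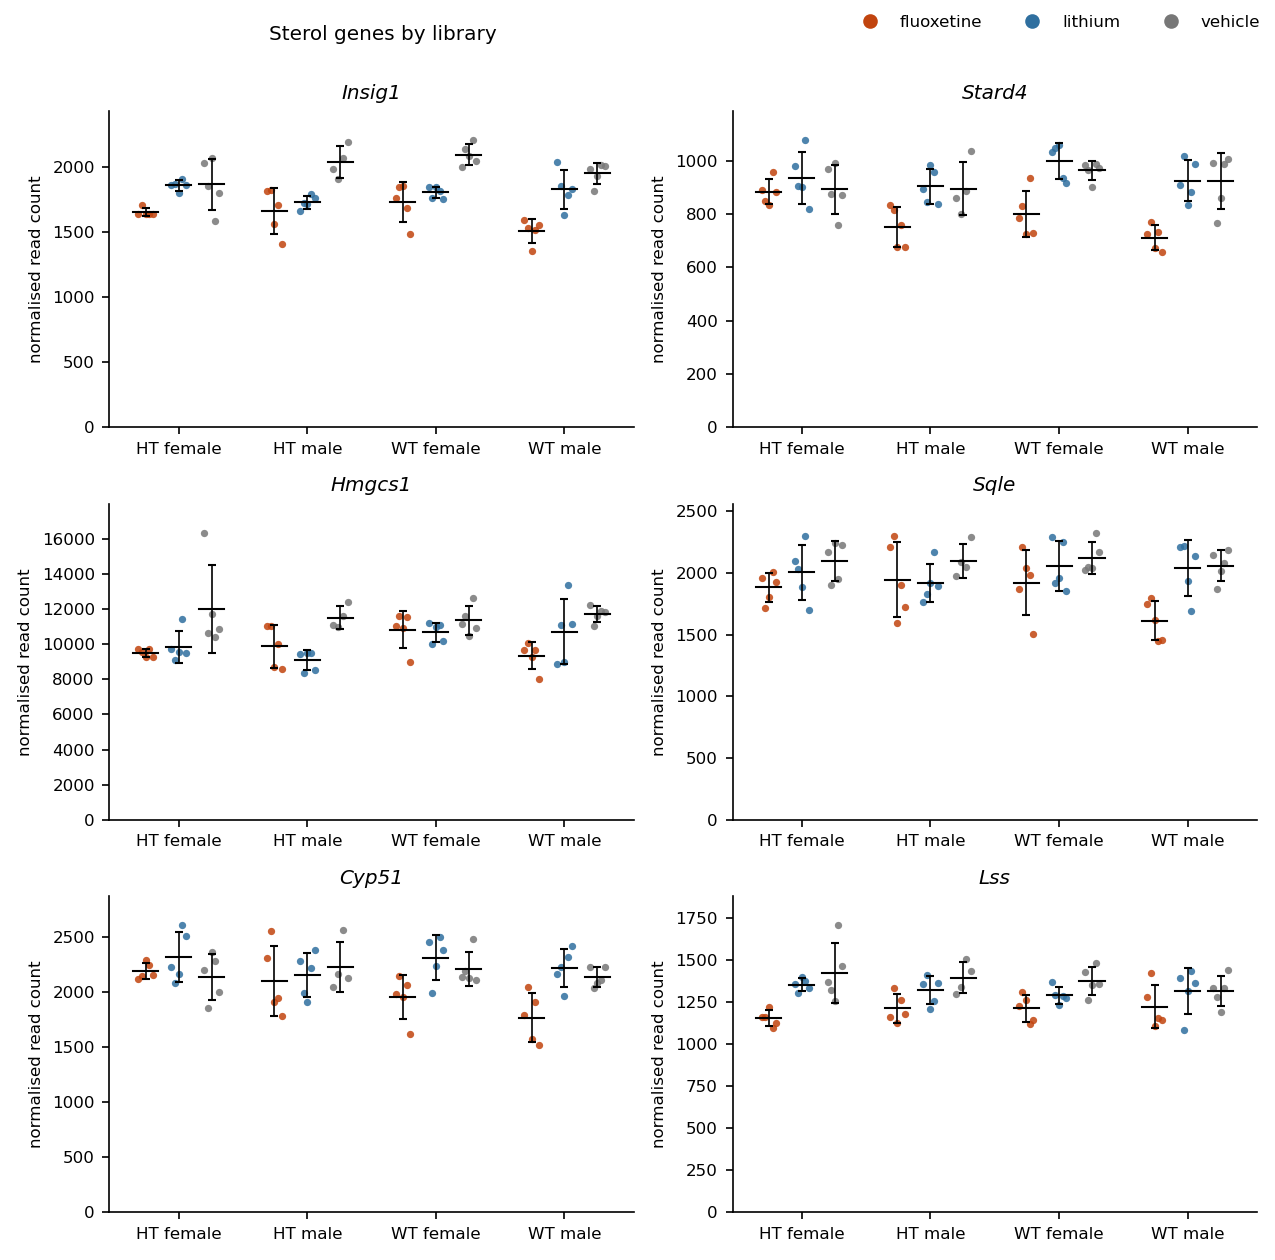
Normalised read count (vertical axis, from 0) of 6 sterol genes in each of the 59 libraries (points), by genotype and sex along the horizontal axis and by treatment in colour; bars are the group mean and SD. Insig1 and Stard4 stood lower under fluoxetine than under vehicle in WT mice and HT males, and the log2 changes of the 4 enzymes were smaller in size, between -0.21 and -0.17 over these groups.

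In the mevalonate arm, all 8 enzymes had a negative log2 change over the 3 groups (-0.21 to -0.01, median -0.15), and 2 of 8 passed the test. Hmgcs1, the synthase of HMG-CoA, had 9696, 10040.0, 9261, 9675 and 8040.4 in WT fluoxetine males, against 12259, 11057, 11581, 11886 and 11858 in WT vehicle males, with no overlap. In females it had 11007, 11626, 10934, 11556 and 9002 in WT fluoxetine, against 11160.0, 11601, 10489, 12628 and 10936 in WT vehicle, where only the replicate at 9002 lay below all vehicle females. HT fluoxetine males had 11053, 11046, 8693, 10025 and 8558, against 11080.0, 10982, 11584 and 12429 in HT vehicle males, so that 3 of 5 lay below all HT vehicle males. Over the 3 groups Hmgcs1 fell (log2 fold change -0.21, SE 0.053, adjusted p = 0.0174), and 9 of 15 fluoxetine libraries lay below every vehicle library.

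Mvd, the decarboxylase that makes isopentenyl diphosphate, was lower over the 3 groups (log2 fold change -0.15, SE 0.040, adjusted p = 0.0253). Its call was lost without HT fluoxetine male replicate 5, HT vehicle male replicate 3, WT fluoxetine male replicate 5 or WT vehicle female replicate 4 (adjusted p up to 0.0525). In HT males alone the counts were 542, 558, 552, 579.5 and 512 in HT fluoxetine males, against 669, 657, 727 and 700.2 in HT vehicle males, without overlap (log2 -0.33, adjusted p = 0.0308). In WT the log2 change was -0.07 (adjusted p = 0.650). Acat2, which joins acetyl-CoA units at the start of the arm, ran from 991 to 1333 (median 1142) under fluoxetine and from 1017 to 1465 (median 1292) under vehicle, and its log2 change of -0.16 missed the threshold (adjusted p = 0.0707). Idi1, the isomerase after Mvd, ran from 1174 to 1878 (median 1592) under fluoxetine and from 1544 to 1989 (median 1676) under vehicle (log2 -0.14, adjusted p = 0.208). The kinase Mvk, the prenyl synthase Fdps and the squalene synthase Fdft1 had -0.11, -0.18 and -0.11 (adjusted p = 0.0984, 0.0751 and 0.133), and the kinase Pmvk stood at -0.01.

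Between squalene and cholesterol, 9 of 10 enzymes had a negative log2 change over the 3 groups (-0.21 to 0.01, median -0.12), and 5 passed. Sqle, the epoxidase that commits squalene to sterol, had 1746, 1797, 1622, 1453 and 1455 in WT fluoxetine males, against 2148, 1867, 2018, 2082 and 2190.5 in WT vehicle males, without overlap. In females it had 1871, 2209.6, 2039, 1985 and 1507 in WT fluoxetine, against 2024, 2051, 2041, 2328 and 2173 in WT vehicle, with overlap. HT fluoxetine males, with 2209, 2301, 1597, 1904 and 1724, held libraries both above and below those of HT vehicle males, with 1972, 2087, 2046 and 2289.9. Sqle fell over the 3 groups (log2 fold change -0.21, SE 0.052, adjusted p = 0.0160) and in WT (log2 fold change -0.25, SE 0.063, adjusted p = 0.0271). In WT its call was lost without WT fluoxetine female replicate 5, WT fluoxetine male replicates 4 or 5, WT vehicle female replicate 4 or WT vehicle male replicate 5 (adjusted p up to 0.0839).

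Cyp51, the lanosterol demethylase, had 1791, 2045, 1579, 1912 and 1525 in WT fluoxetine males, against 2234, 2038, 2086, 2113 and 2226 in WT vehicle males. In females it had 1987, 2147, 1958, 2071 and 1623 in WT fluoxetine, against 2143, 2197, 2130.5, 2485 and 2112 in WT vehicle, and in HT males 2311, 2553, 1911, 1949.5 and 1785 under fluoxetine, against 2051, 2171, 2568 and 2131 under vehicle. The HT male groups overlapped widely, and 10 of all 15 fluoxetine libraries lay below every vehicle library. Cyp51 fell over the 3 groups (log2 fold change -0.19, SE 0.050, adjusted p = 0.0290) and in WT (log2 fold change -0.23, SE 0.060, adjusted p = 0.0372). Over the 3 groups the call was lost without HT fluoxetine male replicates 3, 4 or 5, HT vehicle male replicate 3, WT fluoxetine female replicate 5, WT fluoxetine male replicates 3 or 5 or WT vehicle female replicate 4 (adjusted p up to 0.0789). In WT it was lost without WT fluoxetine female replicates 1, 3 or 5, WT fluoxetine male replicates 3 or 5, WT vehicle female replicates 1 or 4 or WT vehicle male replicates 1, 4 or 5 (adjusted p up to 0.103), and with the trend removed (adjusted p = 0.0573).

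Lss, which closes the ring to lanosterol, ran from 1109 to 1422 (median 1180.0) under fluoxetine and from 1193 to 1509 (median 1346) under vehicle over the 3 groups, and 14 of 15 fluoxetine libraries lay below the vehicle median (log2 fold change -0.17, SE 0.040, adjusted p = 0.0113). Hsd17b7, a sterol ketone reductase, ran from 578 to 734 (median 643) under fluoxetine and from 678 to 763 (median 732) under vehicle (log2 fold change -0.13, SE 0.034, adjusted p = 0.0216). Its call was lost without HT fluoxetine male replicate 5 or HT vehicle male replicate 4 (adjusted p up to 0.0660), as it was with the trend removed (adjusted p = 0.0744). Dhcr7, the last reductase before cholesterol, ran from 908 to 1258 (median 1044) under fluoxetine and from 1040.2 to 1330.0 (median 1132) under vehicle (log2 fold change -0.15, SE 0.042, adjusted p = 0.0396), and its call was lost in 17 of 29 runs that left out 1 library (adjusted p up to 0.102): HT vehicle male replicates 3 and 4, HT fluoxetine male replicates 1, 3 and 5, then WT fluoxetine female replicates 3, 4 and 5, WT fluoxetine male replicates 3 and 5, WT vehicle female replicates 2, 4 and 5 and WT vehicle male replicates 1, 2, 4 and 5. The sterol desaturase Sc5d, the methylsterol oxidase Msmo1 and the dehydrogenase Nsdhl had -0.10, -0.09 and -0.08 and did not pass, while the sterol reductase Tm7sf2 and the isomerase Ebp stood at -0.01 and 0.01.

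Of the other regulators, Srebf2, which encodes SREBP-2, ran from 6462 to 7676 (median 6872) under fluoxetine and from 6659 to 7764 (median 7419) under vehicle, a small change that passed the test over the 3 groups (log2 fold change -0.09, SE 0.024, adjusted p = 0.0191) and not in WT alone (-0.07, adjusted p = 0.293). Srebf1, whose SREBP-1 products act more on fatty acid genes, ran from 734 to 1057 (median 854) under fluoxetine and from 821 to 1125 (median 901) under vehicle and did not pass (-0.09, adjusted p = 0.597). Scap, the escort of SREBP, ran from 2525 to 2959 (median 2829) under fluoxetine and from 2468 to 2991 (median 2856) under vehicle, with a log2 change of -0.01 (adjusted p = 0.893). Insig2, the other retention factor, ran from 1032 to 1136 (median 1084) under fluoxetine and from 989 to 1202 (median 1095) under vehicle, with 0.00 (95% interval -0.04 to 0.05). For its paralog Insig1 the change was -0.32 (95% interval -0.39 to -0.25), and the difference between the paralogs was not tested.

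Members that move sterol out of lysosomes or out of cells were not called under fluoxetine in WT or over the 3 groups. Apoe, the main lipoprotein component released by astrocytes, ran from 32109 to 48032 (median 39820.0) under fluoxetine and from 32366 to 42904 (median 36428) under vehicle (log2 0.07, adjusted p = 0.672). Npc1, which passes cholesterol out of lysosomes, ran from 1378 to 1722 (median 1574) under fluoxetine and from 1448 to 1903 (median 1654) under vehicle (-0.06, adjusted p = 0.614), and its partner Npc2 stood at 0.00. The 4 efflux and sensing genes lay between -0.05 and 0.08: the transporters Abca1 and Abcg1 at -0.05 and -0.03, and the liver X receptors Nr1h2 and Nr1h3 at 0.02 and 0.08. Nr1h3 was the least precise of these (SE 0.12), with counts of 43.5 to 72.9 (median 55.1) under fluoxetine and 36.3 to 76.7 (median 53.4) under vehicle. Nr1h2 ran from 1010.3 to 1264 (median 1193) under fluoxetine and from 948 to 1308 (median 1173) under vehicle, and Abcg1 from 1358 to 1579.6 (median 1446) under fluoxetine and from 1382 to 1599 (median 1510.2) under vehicle. Cyp46a1, the neuronal hydroxylase that turns cholesterol into an oxysterol able to leave the brain, ran from 6219 to 8077 (median 6999) under fluoxetine and from 5772 to 7506 (median 7137) under vehicle, with a log2 change of 0.00 (95% interval -0.06 to 0.06).

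As a description of the enzymes from library to library, the log2 values of the 18 enzymes, each less its mean over all 59 libraries, were averaged per library. WT fluoxetine males had -0.258, -0.201, -0.112, -0.0999 and -0.0153, against -0.0336, 0.0142, 0.0326, 0.0344 and 0.0988 in WT vehicle males. WT fluoxetine females had -0.200, -0.0225, 0.0504, 0.0555 and 0.0917, against -0.0366, 0.0254, 0.0300, 0.103 and 0.179 in WT vehicle females, so that 1 fluoxetine female, replicate 5, stood below the other 4. HT fluoxetine males had -0.156, -0.149, -0.0104, -0.00804 and 0.0872, against 0.0352, 0.0595, 0.120 and 0.133 in HT vehicle males. In males several fluoxetine libraries were low, while in WT females the other 4 lay within the range of WT vehicle females, and in the low one all 18 enzymes lay below the vehicle mean.

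**Figure D2:**
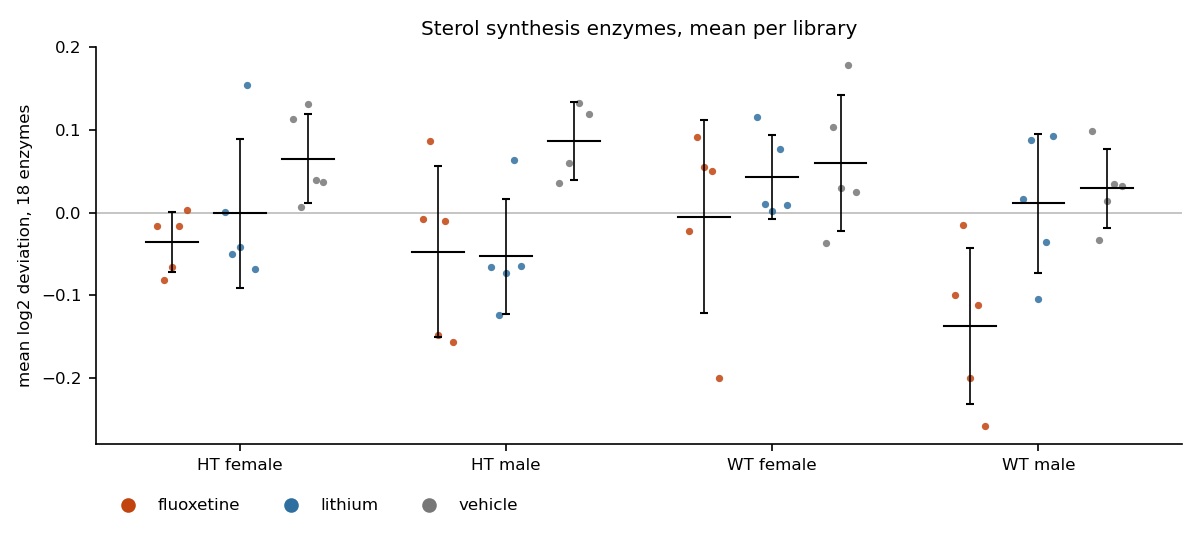
Mean log2 deviation of the 18 sterol synthesis enzymes from their means over all 59 libraries (vertical axis), 1 point per library, by genotype and sex (horizontal axis) and treatment (colour); bars are the group mean and SD. WT fluoxetine males ranged from -0.258 to -0.0153 and WT vehicle males from -0.0336 to 0.0988, and the WT fluoxetine females held 1 low library at -0.200.

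With group means removed, each enzyme was correlated (Pearson) with the mean of the other enzymes over the 59 libraries. The values ran from 0.143 for Lss to 0.799 for Fdps, with a median of 0.625. The 17873 other genes tested, against the mean of all 18, ran from -0.704 to 0.684, with a median of -0.000583. The highest of these other genes thus lay above the enzyme median. The points share library depth and composition, so these values only describe. Of the other roles, Stard4 had 0.654, Insig1 0.649, Srebf2 0.619 and Insig2 0.492. By contrast Apoe had -0.327 and Abca1 -0.320, and Srebf1 (-0.0186), Nr1h2 (0.0711), Nr1h3 (0.0745) and Cyp46a1 (0.0851) were near 0. Insig2 thus varied with the enzymes within groups but was not called under fluoxetine in WT or over the 3 groups, and Lss was called but varied least with them.

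Fluoxetine was also set against vehicle within each sex. Of the 32 log2 changes 24 were negative in WT females (median -0.05) and 23 in WT males (median -0.12), and 29 were negative in HT males (median -0.11). In HT females, whose fluoxetine libraries stood apart, 22 were negative (median -0.22). Of the 18 enzymes 16 were negative in WT females, 16 in WT males, 17 in HT males and 10 in HT females. Signs over all genes were not counted in these strata, and the enzymes varied together, so the counts only describe. Among WT fluoxetine females, only replicate 5 had all 18 enzymes below the vehicle mean. Insig1 passed in each stratum alone, with -0.28 in WT females, -0.37 in WT males, -0.30 in HT males and -0.17 in HT females (adjusted p = 0.0248, 7.13e-04, 0.0263 and 0.0200). Stard4 passed in WT males (-0.37, adjusted p = 0.0230) and had -0.27 in WT females. The difference between the sexes in WT was tested as an interaction (limma): 0 of 32 members were called higher and 0 lower, with 0% of all genes called in either direction (2 members higher and 0 lower at an unadjusted p under 0.05, and 0 by edgeR and by DESeq2). The 2 were Hmgcs1, with a difference of 0.26 for females minus males, and Srebf2 with 0.13.

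Markers of other cell types were read beside these results. In WT all 12 oligodendrocyte markers had a negative log2 change under fluoxetine (median -0.15) but none passed, and the summed level of the list ran from 43450 to 172600 in WT fluoxetine and from 42210 to 235000 in WT vehicle. Over the 3 groups 5 of 12 were negative (median 0.01), with sums of 43450 to 186500 under fluoxetine and 42210 to 235000 under vehicle. Of the 9 astrocyte markers 1 passed over the 3 groups (Sox9, log2 -0.26, adjusted p = 0.0350), with sums of 141200 to 195100 under fluoxetine and 138800 to 186500 under vehicle. Of the 8 markers of cortical excitatory neurons 1 passed over the 3 groups (Rorb, log2 -0.21, adjusted p = 0.0191). No marker on these lists was at 0 in these groups. The part of cell composition in the sterol changes was not tested, and in bulk tissue fewer cells of a type and less RNA per cell cannot be told apart.

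Other genes of these pathways, from lists that are no members, gave the surroundings. Over WT mice and HT males under fluoxetine, 1 of 20 fatty acid synthesis genes was lower, Acaca, the acetyl-CoA carboxylase (log2 fold change -0.07, SE 0.020, adjusted p = 0.0315), and 15 of 20 were negative. None of 10 genes of the isoprenoid branch and none of 29 further genes of transport, storage and oxidation passed in either direction over the 3 groups. In WT alone Vldlr, a receptor for apolipoprotein E and reelin, was lower (-0.13, adjusted p = 0.0354), as 1 of those 29 genes.

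In HT mice, with both sexes together, 18 of 32 members were lower under fluoxetine, where 16.3% of all genes were lower, and 1, Insig2, was higher, where 14.8% of all genes were higher. Without the 5 HT fluoxetine females, whose libraries stood apart, the comparison was of males only, 5 HT fluoxetine against 4 HT vehicle libraries. With these fewer libraries 2 members remained called, Insig1 and Mvd. With both sexes kept and the trend removed, 14 were lower and 0 higher. In the same comparison, with all libraries as deposited, 4 of 9 astrocyte markers were lower (summed levels of 131800 to 151500 in HT fluoxetine and 141100 to 185900 in HT vehicle). So were 4 of 8 markers of cortical excitatory neurons, with 1 higher (135900 to 176400 in HT fluoxetine and 153500 to 193300 in HT vehicle), and 3 of 6 endothelial markers, with 1 higher (6229 to 6646 in HT fluoxetine and 6151 to 8290 in HT vehicle). None of these markers was at 0, and their part in the members' changes was not tested. By role the 18 were 6 of 8 in the mevalonate arm, 2 of 10 between squalene and cholesterol (Lss and Dhcr7), 4 of 5 regulators, Npc1 and Apoe, 3 of 4 efflux and sensing genes and Cyp46a1. Of these 18, Fdft1, Srebf2, Abca1, Nr1h2 and Cyp46a1 were no longer called with the trend removed, and 13 were called both ways. Stard4 was called lower only with the trend removed. Mvd and Srebf2 did not overlap between HT fluoxetine and HT vehicle, and the share of all genes without overlap was not counted. Mvd ran from 395 to 579.5 (median 479) in HT fluoxetine and from 606 to 727 (median 657) in HT vehicle, and Srebf2 from 5374 to 7002 (median 6309) in HT fluoxetine and from 7053 to 7906 (median 7559) in HT vehicle. In HT females alone Apoe had a log2 change of -0.58 and Srebf1 -0.74, against -0.11 and -0.14 in HT males. Hmgcs1 in HT vehicle females included 1 library at 16357 beside 10404 to 11729 in the other 4.

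The interaction of genotype with fluoxetine gave a lower value in HT for 9 of 32 members, where 11.7% of all genes were lower, and a higher one for 4, where 8.97% were higher. The 9 were Mvk, Mvd, Srebf2, Srebf1, Scap, Apoe, Abcg1, Nr1h2 and Cyp46a1, and the 4 were Idi1, Msmo1, Sc5d and Insig2. The largest in size was Apoe (log2 fold change -0.50, SE 0.083, adjusted p = 1.86e-05). Without the 5 HT fluoxetine females the interaction was taken in males only, with fewer libraries, and 0 members were called. With both sexes kept and the trend removed 1 was, Apoe, at -0.34 (adjusted p = 0.00271).

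**Figure D3:**
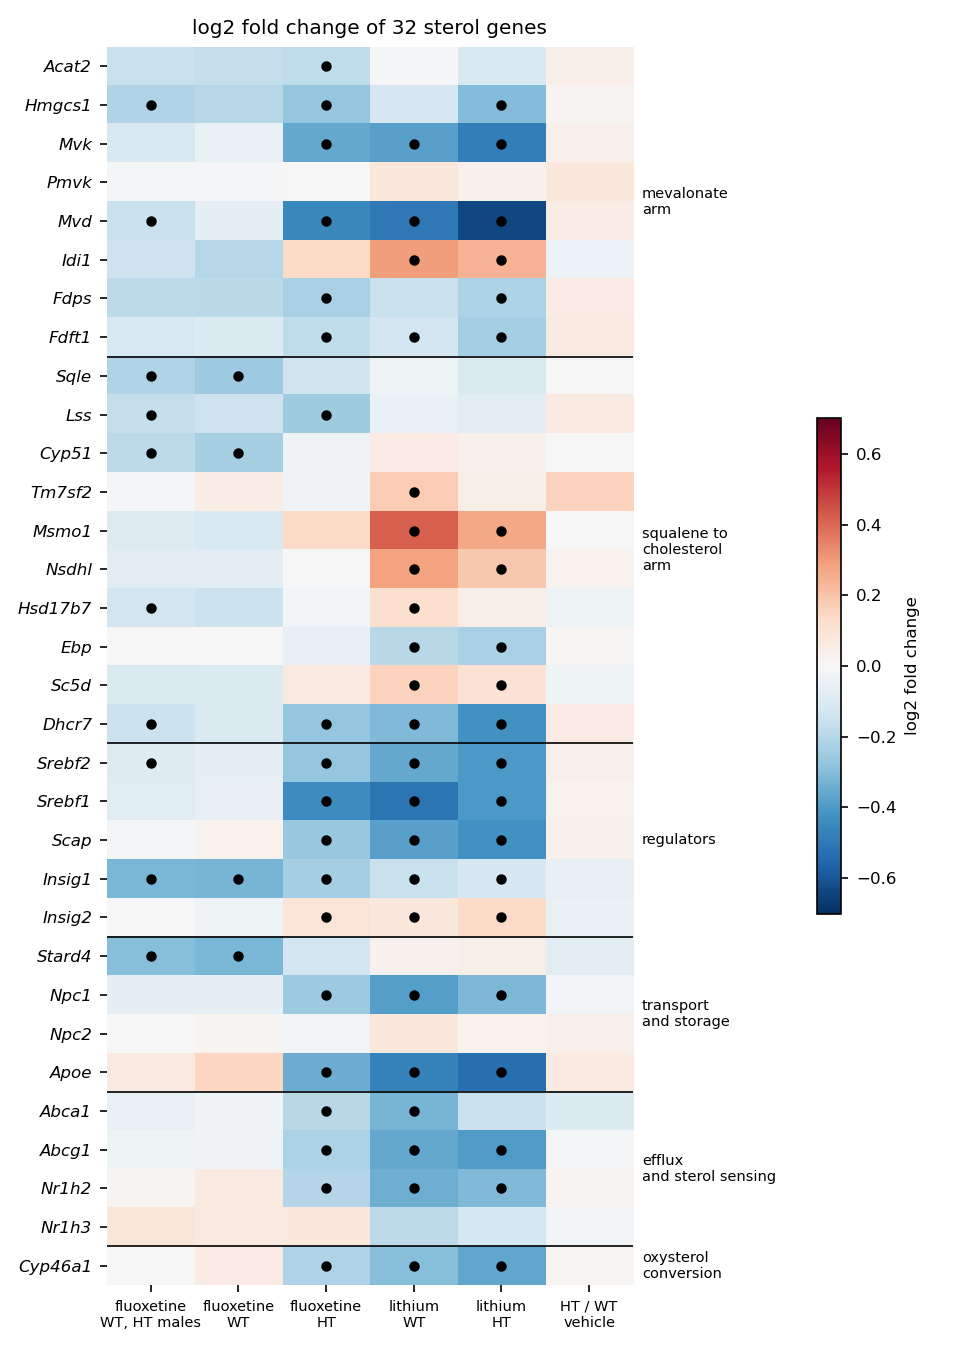
Log2 fold change (colour) of the 32 members (rows, by role) in 6 comparisons (columns); the first column is fluoxetine against vehicle in WT females, WT males and HT males together, and a black dot marks an adjusted p under 0.05. The dots number 10, 4, 19, 22, 21 and 0 from left to right, and the lithium columns and fluoxetine in HT are the comparisons with the libraries that stood apart.

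Lithium changed many members in both directions, in a comparison in which much of the transcriptome was called. In WT 15 of 32 were lower, where 26.3% of all genes were lower, and 7 were higher, where 26.6% were higher. In HT 16 were lower, where 24.9% of all genes were lower, and 5 higher, where 25.7% were higher. The members' share called lower was above that of all genes in both genotypes, and their share called higher was not. In WT the lower set held Mvk, Mvd, Fdft1, Ebp and Dhcr7 among the enzymes, Srebf2, Srebf1, Scap and Insig1 among the regulators, and Npc1, Apoe, Abca1, Abcg1, Nr1h2 and Cyp46a1. The higher set held Idi1, Tm7sf2, Msmo1, Nsdhl, Hsd17b7, Sc5d and Insig2.

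The sets differed in GC content. In WT the 7 higher members had transcripts of 41.9% to 51.0% GC (median 44.7%) and the 15 lower ones 45.7% to 60.6% (median 56.3%), beside a median of 49.4% over all genes tested. With the trend of GC content and length removed from each library, 14 members were lower and 5 higher in WT, and 13 and 3 of these were among those called before. In HT 16 were lower and 0 higher after the same step. The 3 that were higher in WT both ways were Msmo1, Nsdhl and Tm7sf2. Insig2 had 0.07 as deposited and -0.05 with the trend removed, and Srebf2 had -0.36 as deposited and -0.04 (adjusted p = 0.261) with it removed.

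**Figure D4:**
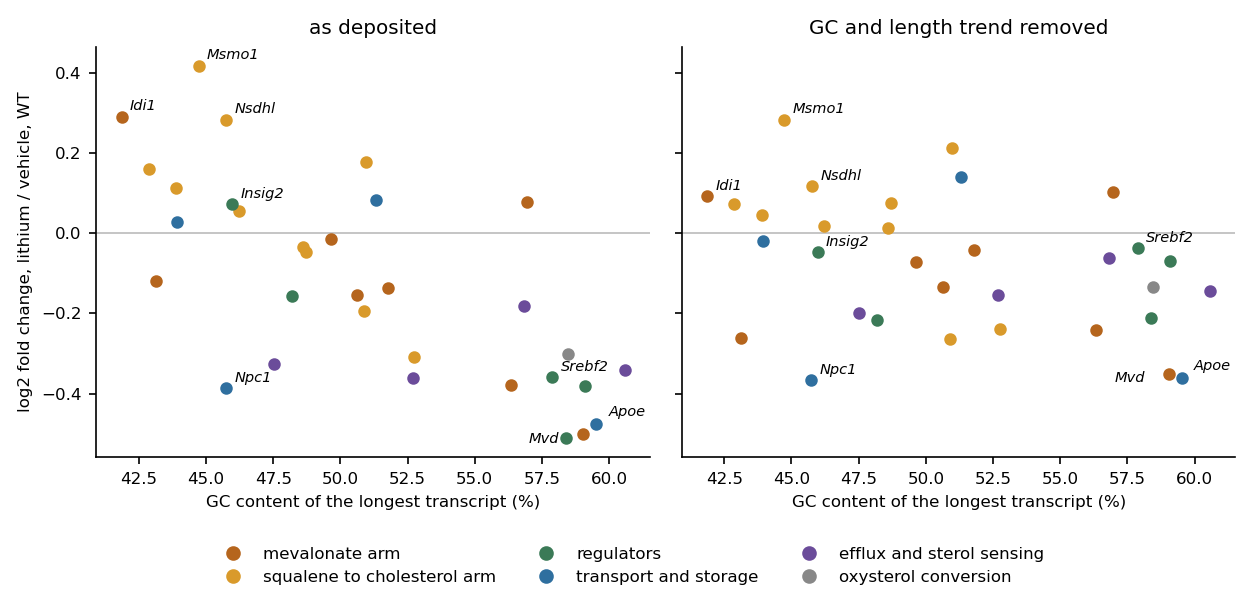
Log2 fold change of lithium against vehicle in WT (vertical axis) for the 32 members against the GC content of the longest transcript in percent (horizontal axis), coloured by role, as deposited (left) and with each library's GC and length trend removed (right). On the left the values fall with GC content; on the right Mvd, Apoe and Npc1 stay low and Msmo1 stays high.

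Apoe was among the lowest under lithium by either way of processing. It ran from 22894 to 29653 (median 25999) in WT lithium and from 32366 to 42904 (median 35034) in WT vehicle, without overlap (log2 fold change -0.48, SE 0.058, adjusted p = 6.30e-10), and stood at -0.36 (adjusted p = 1.68e-08) with the trend removed. In HT it ran from 22318 to 29555 (median 26769) under lithium and from 32173 to 42335 (median 39244) under vehicle, again without overlap (log2 fold change -0.53, SE 0.059, adjusted p = 1.14e-10), and stood at -0.36 (adjusted p = 4.39e-08) with the trend removed. Of the 9 astrocyte markers 6 were lower under lithium in WT (median log2 -0.19), with summed levels of 127300 to 161400 in WT lithium and 138800 to 186500 in WT vehicle, and their part in the result for Apoe was not tested. Npc1 ran from 1089 to 1418 (median 1331) in WT lithium and from 1505 to 1903 (median 1655) in WT vehicle, without overlap (log2 fold change -0.39, SE 0.052, adjusted p = 8.47e-09), and its value changed little with the trend removed, -0.37 (adjusted p = 8.09e-09). Lithium called 26.3% of all genes lower in WT and 24.9% in HT. The share of all genes without overlap was not counted, so the lack of overlap only describes Apoe and Npc1.

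Mvd ran from 387 to 489 (median 453) in WT lithium and from 508 to 687 (median 654) in WT vehicle, without overlap (log2 fold change -0.50, SE 0.049, adjusted p = 1.03e-12), and had -0.35 (adjusted p = 2.69e-09) with the trend removed. For Mvd, too, the lack of overlap only describes, as its share over all genes was not counted. Msmo1, the methylsterol oxidase, was higher: it ran from 2173 to 3231 (median 2777) in WT lithium and from 1799.6 to 2302 (median 2004) in WT vehicle (log2 fold change 0.42, SE 0.060, adjusted p = 5.25e-08). With the trend removed it had 0.28 (adjusted p = 9.42e-05) in WT and 0.11 (adjusted p = 0.158) in HT, where the call was lost. Insig1 was lower under lithium in both genotypes, with log2 changes of -0.16 in WT and -0.12 in HT (adjusted p = 0.00150 and 0.0196), with -0.22 (adjusted p = 1.26e-04) and -0.19 (adjusted p = 0.00101) after the trend was removed. The HT call on the deposited values was lost without HT vehicle female replicate 3 or HT vehicle male replicate 4 (adjusted p up to 0.0601).

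Among the other regulators and sensors, Srebf1, Scap, Abcg1, Nr1h2 and Cyp46a1 fell under lithium. Scap ran from 2029 to 2293 (median 2152) in WT lithium and from 2468 to 2965 (median 2858) in WT vehicle (log2 fold change -0.38, SE 0.027, adjusted p = 8.46e-17), and had -0.07 (adjusted p = 0.00784) with the trend removed. Srebf1 ran from 545 to 746 (median 680.3) in WT lithium and from 821 to 1125 (median 914) in WT vehicle (log2 fold change -0.51, SE 0.067, adjusted p = 4.05e-09), and had -0.21 (adjusted p = 0.00359) with the trend removed. In HT Srebf1 had -0.40 as deposited (adjusted p = 1.81e-06) and was no longer called with the trend removed, at -0.10 (adjusted p = 0.230). Scap and Srebf1 did not overlap between WT lithium and WT vehicle. The same held for Dhcr7, Abcg1 and Srebf2, of which Srebf2 was no longer called with the trend removed. In that comparison 26.3% of all genes were called lower, and the share of all genes without overlap was not counted. Abcg1, Nr1h2 and Cyp46a1 had -0.36, -0.34 and -0.30 as deposited, and -0.15, -0.14 and -0.14 with the trend removed, and remained called. Of the 8 markers of cortical excitatory neurons, 7 were lower under lithium in WT and 1 higher (median log2 -0.21), with summed levels of 131900 to 161900 in WT lithium and 136900 to 199400 in WT vehicle. In HT 7 of 8 were lower (median log2 -0.27), with sums of 122000 to 150000 in HT lithium and 153500 to 193300 in HT vehicle. Their part in the result for Cyp46a1 was not tested. Of the 4 members called under fluoxetine in WT, all but Insig1 were not called here: Stard4 had 0.03 in WT and 0.04 in HT, Sqle -0.04 and -0.10, and Cyp51 0.06 and 0.04. The genotype by lithium interaction called 0 of 32 members in either direction, with 0% of all genes called (limma; 0 higher and 2 lower at an unadjusted p under 0.05, and 0 by edgeR and by DESeq2).

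Set directly against each other in WT, lithium and fluoxetine differed for 25 members: 13 were lower under lithium, where 26.4% of all genes were lower, and 12 higher, where 26.9% were higher. Among the 12 were Stard4, which ran from 835 to 1059.6 (median 960.4) in WT lithium and from 656 to 934 (median 732) in WT fluoxetine (log2 fold change 0.35, SE 0.055, adjusted p = 3.97e-07), and Sqle, Cyp51, Hsd17b7 and Insig1 (0.22, 0.29, 0.26 and 0.17). With the trend removed Stard4 had 0.26 (adjusted p = 4.06e-04), and Insig1, at 0.10 (adjusted p = 0.0831), was no longer called. In the direct comparison, too, the drug cannot be told apart from the profile of the lithium libraries.

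Genotype alone gave no call among the members. Under vehicle 0 of 32 were lower in HT than in WT, where 0.0783% of all genes were lower, and 0 higher, where 0.0279% were higher (limma; 1 member higher and 0 lower at an unadjusted p under 0.05, and 0 by edgeR and by DESeq2). The median log2 difference was 0.02 over the members, which lay between -0.10 and 0.16. The member with an unadjusted p under 0.05 was Tm7sf2, which ran from 491 to 572 (median 545) in HT vehicle and from 449.7 to 525 (median 477) in WT vehicle (log2 fold change 0.16, SE 0.046, adjusted p = 0.202). Insig1 differed by -0.05 (95% interval -0.14 to 0.03) and Hmgcs1 by 0.02 (-0.12 to 0.15).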

How the data were processed

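RNA of the prefrontal cortex was sequenced in 59 libraries with a poly(A), strand-specific kit, per the labels' protocols. The submitters' processing notes list GRCm38 as the build and, among tools, DESeq2 1.19.11, Salmon 0.11.2 and R 3.6.0. The deposited signal values are the authors' normalised read counts, and each column was multiplied by 1 size factor to recover reads. Of the lower values, on which this factor was fitted, 100% lay within 0.01 of a whole read. Higher values were rounded to whole reads without this check. The recovered reads were used in the edgeR and DESeq2 alternatives.

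Genes with a value of 10 or more in 4 or more libraries (17891 of 18088) were analysed as log2(value + 1) with limma 3.58.1 (R 4.3.3; moderated test with an intensity trend, two-sided, 12 group means, 47 residual degrees of freedom), with Benjamini-Hochberg adjustment over all genes and a threshold of 0.05. Fold changes are on this log2(value + 1) scale. Overlap between groups was looked at for members only and not for all genes, so a lack of overlap only describes the values. Alternatives used edgeR 4.0.16, DESeq2 1.42.0, other pseudocounts, filters and scalings, a replicate block, removal of each library's GC and length trend, and leaving out libraries. The fit was also run on simulated counts with planted changes, drawn independently for each library at a fixed dispersion. These counts held no litters and no GC or length profile, so that run cannot speak to either. Full values are given for the 5 regulators and, per role, for up to 3 members with the smallest p under fluoxetine in WT; other members that are described by library were chosen after their values were seen. The members and lists were chosen with earlier results of these data known. Litters are not given, and the drugs reached the young through the mother's milk. The test took the 59 libraries as independent, although young of 1 litter share a mother. The p-values therefore measure the spread between these samples and not between treated mothers, and they may be too small. An effect of litter cannot be told apart from one of treatment. Depth limits precision mainly for Nr1h3. Figures were drawn with matplotlib 3.10.9 (Python 3.11.15). Results of 1 further list of sterol genes are not reported here.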

Additional observations from a re-analysis of the deposited data

Results flagged for a closer look

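Single libraries stood away from the rest of their group by Dixon's criterion for 12 of 216 combinations of gene and group (5.56%), where chance gives about 1 in 20. Srebf2 was low in WT vehicle male replicate 2 (6848 normalised counts, with the others of that group at 7461 to 7595). Insig1 was high in HT fluoxetine female replicate 2 (1713 normalised counts, with the others of that group at 1638 to 1645). Insig2 was low in WT fluoxetine female replicate 5 (1038 normalised counts, with the others of that group at 1117 to 1132). Hmgcs1 was high in HT lithium female replicate 4 (11430.0 normalised counts, with the others of that group at 9076 to 9742). Hmgcs1 was high in HT vehicle female replicate 1 (16360.0 normalised counts, with the others of that group at 10400.0 to 11730.0). Hmgcs1 was low in WT fluoxetine female replicate 5 (9002 normalised counts, with the others of that group at 10930.0 to 11630.0). Idi1 was low in HT vehicle female replicate 2 (1414 normalised counts, with the others of that group at 1713 to 1821). Acat2 was low in WT vehicle male replicate 2 (1017 normalised counts, with the others of that group at 1263 to 1300.0). Cyp51 was high in WT vehicle female replicate 4 (2485 normalised counts, with the others of that group at 2112 to 2197). Hsd17b7 was high in HT vehicle male replicate 4 (761.2 normalised counts, with the others of that group at 678.1 to 683.3). Hsd17b7 was low in WT vehicle male replicate 2 (697.2 normalised counts, with the others of that group at 742.6 to 760.5). Stard4 was low in WT vehicle female replicate 3 (902.7 normalised counts, with the others of that group at 966.6 to 989.0).

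The response to fluoxetine differed between HT and WT (interaction, limma, adjusted p under 0.05) for 13 members. The log2 difference was negative for Mvk -0.31, Mvd -0.38, Srebf2 -0.20, Srebf1 -0.38, Scap -0.29, Apoe -0.50, Abcg1 -0.20, Nr1h2 -0.27, Cyp46a1 -0.27, and positive for Idi1 0.33, Msmo1 0.24, Sc5d 0.16, Insig2 0.12. Without the HT fluoxetine females, in males only, 0 of these were called, and 1 was after removal of the GC and length trend with both sexes kept.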

How the results depend on the processing

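Over 12 alternatives for each comparison, the number of members called moved by more than 1.5 times in 3 cases. Without the HT fluoxetine females both comparisons concerned were of males only. The number was then 2 for fluoxetine in HT and 0 for the genotype by fluoxetine interaction. Removing the GC and length trend gave 1 for that interaction. Leaving out 1 library at a time gave 2 to 5 members for fluoxetine in WT, 6 to 12 for fluoxetine over WT and HT males, 18 to 20 for fluoxetine in HT, 22 to 23 for lithium in WT, 20 to 22 for lithium in HT, 24 to 26 for lithium against fluoxetine in WT, 12 to 15 for the genotype by fluoxetine interaction and 0 for the genotype, genotype by lithium and sex by fluoxetine comparisons. With the trend removed the direction turned for Insig2, lithium against vehicle in WT (-0.0472), Sc5d, lithium against vehicle in HT (-0.0244), Insig2, lithium against vehicle in HT (-0.000509), Srebf2, lithium against fluoxetine in WT (0.0544), Insig2, lithium against fluoxetine in WT (-0.0403), Srebf2, genotype by fluoxetine interaction (0.0169). The cause was not tested. For fluoxetine in HT the call of Abca1 was lost in 10 of 19 runs that left out 1 library and that of Acat2 without HT vehicle male replicate 4, and for the genotype by fluoxetine interaction that of Msmo1 in 15 of 39 and that of Sc5d in 2. Same-numbered libraries did not deviate together (mean correlation 0.0104 over 319 pairs), so the numbers were not taken to pair them. With the replicate number as a block 5 members were called for fluoxetine in WT, 10 over WT and HT males, 19 in HT, 23 for lithium in WT, 22 in HT, 25 for lithium against fluoxetine, 14 for the genotype by fluoxetine interaction and 0 for the other 3 comparisons. The comparison over WT and HT males was added after seeing the data.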
